A study of Rattus norvegicus with 125 samples.

Results

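The glycerol 3-phosphate and malate dehydrogenases of the cytosol and the mitochondria were followed in 5 organs of rats exposed to phosphine (PH3) or to air. The members are 4 genes. Gpd1 encodes the cytosolic glycerol 3-phosphate dehydrogenase and Gpd2 its mitochondrial, FAD-dependent counterpart, while Mdh1 and Mdh2 encode the cytosolic and the mitochondrial malate dehydrogenase. They were taken as the genes named by probe sets that the platform annotation gives that symbol alone. This gave 7 probe sets of the 31139 on the array, and 4 of the 13439 genes tested. Where a gene had several probe sets, the one that read highest on average in a tissue stood for it, and this was the same one in all 5 tissues. These were 1371363_PM_at for Gpd1, 1369666_PM_at for Gpd2, 1367653_PM_a_at for Mdh1 and 1369927_PM_at for Mdh2.

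Glycolysis makes NADH in the cytosol, and NADH does not cross the inner mitochondrial membrane. A pair of shuttles carries its electrons inward. In the glycerol phosphate shuttle, GPD1 reduces dihydroxyacetone phosphate to glycerol 3-phosphate, and GPD2 on the inner membrane oxidises it again and passes the electrons to the respiratory chain. In the malate-aspartate shuttle, MDH1 makes malate in the cytosol and MDH2 oxidises it in the matrix, where MDH2 also serves the tricarboxylic acid cycle. Glycerol 3-phosphate is in addition the backbone of triglycerides and phospholipids, so GPD1 is abundant in liver and adipose tissue, and in brain it is known from oligodendrocytes and as a gene that glucocorticoids induce. Phosphine is used as a fumigant and is known to block mitochondrial respiration at cytochrome c oxidase.

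The animals were adult male Sprague-Dawley rats, and the labels name no genetic change in any group. Exposed rats breathed PH3 at 387 ppm for 40 min with the whole body in the gas, a product of concentration and time of 15480 ppm × min that the submitters describe as the low exposure, and control rats are labelled Air, at 0 ppm. All rats received ketamine and xylazine before the tissues were taken. Brain, heart and kidney were taken 1, 3, 6 and 24 h later, liver at 3 h (PH3 only) and 6 h. Lungs were collected after 3 h, after 24 h and after 1 week. The arrays, 125 in all, came from 48 rats by the rat numbers in the labels and formed 33 groups of 2 to 4 arrays, with 1 array per rat and tissue, which allowed 16 comparisons of PH3 with Air.

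All values are log2 signals after RMA, so a difference of 1 is a 2-fold change, and ± after a difference is its standard error. Array medians lay between 5.08 and 5.52, and no 2 arrays held identical values. The mean of each organ's own marker genes was higher on all its arrays than on any array of another organ. The arrays also carried RNA that varied within organs. Adipocyte genes varied widely in heart and lung, hepatocyte genes were raised by over 1 log2 unit above the median brain array in 7 of 32 brain arrays, and at 24 h the brains of Air rats 89 and 145 were low in cerebellum and brain stem genes. These values are given beside the results they touch. In bulk tissue, fewer cells of a type and less RNA per cell cannot be told apart.

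Gpd1 was higher in the brain of exposed rats at every time measured. At 1 h the Air arrays read 9.93, 9.29, 9.55 and 9.43, and the PH3 arrays 10.31, 10.62, 10.10 and 10.16. At 3 h the Air arrays read 8.90, 9.05, 8.81 and 9.51, and the PH3 arrays 9.79, 10.21, 10.73 and 10.48. Every PH3 array thus lay above every Air array of its time, and at 3 h the lowest exposed brain was still above the highest control. At 6 h the Air arrays read 9.64, 9.63, 9.41 and 9.65, and the PH3 arrays 10.14, 10.04, 10.19 and 11.19. At 24 h the Air arrays read 8.08, 8.50, 8.24 and 8.36, and the PH3 arrays 9.08, 8.74, 9.32 and 9.10. The groups did not overlap at these times either, with 1 PH3 array at 6 h (rat 141) far above the other 3 and all 4 Air arrays at 24 h below the other 12 Air brains. The PH3 arrays at 24 h, at most 9.32, likewise lay below the PH3 brains of the other times, at least 9.79. Groups did not overlap for 2.24%, 2.95%, 2.37% and 2.55% of all genes at 1, 3, 6 and 24 h.

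**Figure D1:**
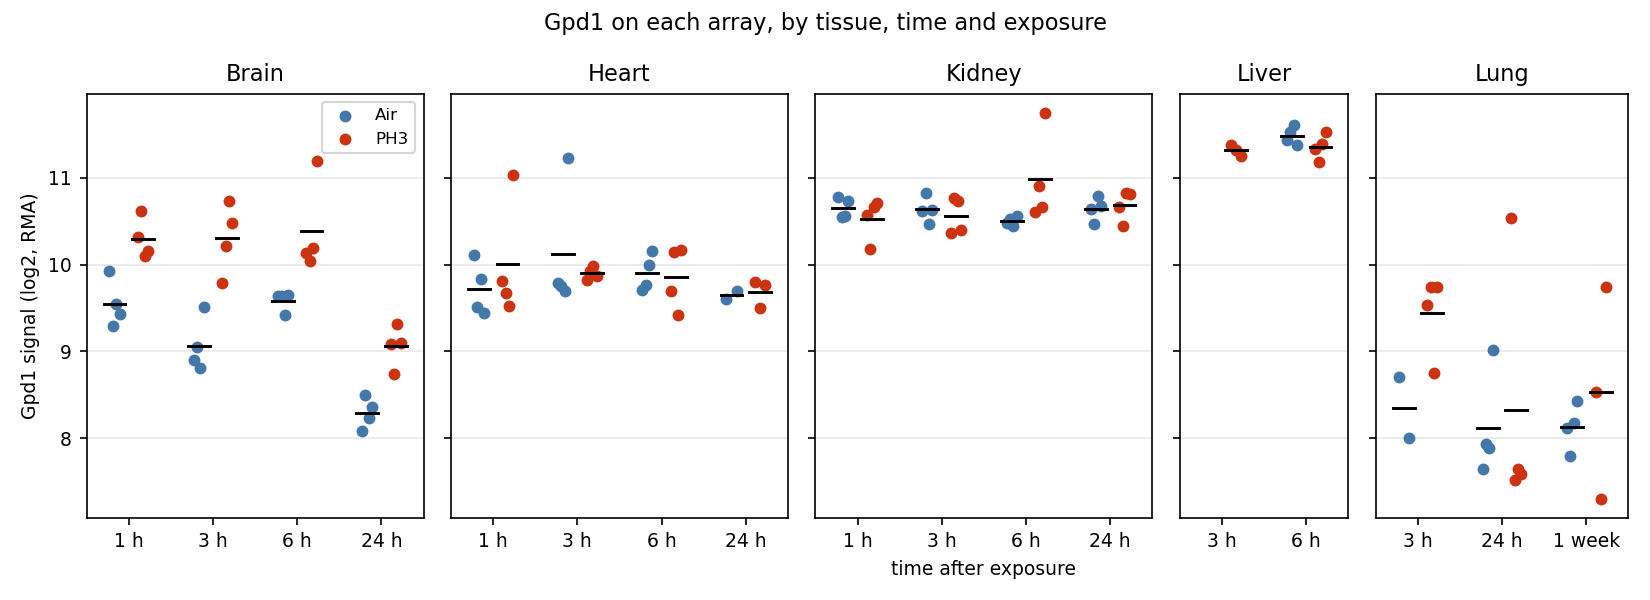
Gpd1 log2 signal (vertical axis) on each array by tissue and time after exposure, with Air in blue, PH3 in red and the group mean as a black bar. In brain the PH3 points lie above the Air points at 1, 3, 6 and 24 h, while in heart, kidney and liver the means differ by 0.48 or less and single arrays stand apart.

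The difference passed the test at 3 h, where Gpd1 rose by 1.24 ± 0.21 (2.36-fold, 4 arrays per group, limma adjusted p = 0.0295). It was the only gene of 13439 to pass there, and 0.00744% of genes were called. At the other times the differences were 0.75 ± 0.21 at 1 h (adjusted p = 0.849), 0.80 ± 0.21 at 6 h (adjusted p = 0.543) and 0.77 ± 0.21 at 24 h (adjusted p = 0.148) in the limma fit, where 0.00744%, 0.00744% and 0.0298% of genes were called. None of these passed, although the unadjusted p-values were 0.00123, 6.06e-04 and 9.93e-04. The call at 3 h was kept without Air rat 150 or PH3 rat 105. It was lost when any of Air rats 97, 108 and 120 or PH3 rats 111, 122 and 152 was left out, with differences of 1.09 to 1.27 and limma adjusted p-values up to 0.383. It was also lost when all probe sets were tested (adjusted p = 0.0670) or the 2 groups were fitted alone (adjusted p = 0.235). At 6 h the difference without PH3 rat 141 was 0.54.

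Averaged over the 4 times, Gpd1 rose in brain by 0.89 ± 0.10, or 1.85-fold, with a 95% interval of 0.68 to 1.10 (limma adjusted p = 3.84e-05). PH3 brains ranged from 8.74 to 11.19 with a mean of 10.01 ± 0.66 (SD, n = 16), and Air brains from 8.08 to 9.93 with a mean of 9.12 ± 0.58 (SD, n = 16). Gpd1 had the smallest p-value of all genes in this average, in which 12 genes, or 0.0893%, were called. The call held when each of the 32 brain arrays was left out in turn, with averages of 0.82 to 0.93 and adjusted p-values of at most 1.33e-04 in limma. A limma F test between the 4 times gave no call for Gpd1 (adjusted p = 0.935), in a test that called 0% of genes in brain (0 of 13439).

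The other probe set for Gpd1, 1369560_PM_at, gave much smaller differences in brain, and none was called. It read 4.001 ± 0.192 on average over the 32 brain arrays (SD), close to the 25th percentile of brain arrays at 3.85, whereas the probe set used read 9.57 ± 0.76. On it the differences in brain were -0.0013 at 1 h, 0.41 at 3 h, 0.14 at 6 h and 0.17 at 24 h. None passed in the limma fit (adjusted p = 0.723 at 3 h), and the average over times was 0.18 ± 0.05 (adjusted p = 0.294). The calls in brain thus rest on 1 of the 2 probe sets.

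The size of the exposure effect on Gpd1 differed between brain, heart and kidney. Averaged over 1, 3 and 6 h, PH3 minus Air was 0.93 in brain, 0.01 in heart and 0.09 in kidney, each with a standard error of 0.14. The limma F test of that difference gave F = 12.56 and an adjusted p of 0.00622, in a test that called 158 genes, or 1.18%. Most of these organs came from the same rats, and with the rat as a replicate block F was 13.03 and the limma adjusted p 0.00456, with 170 genes called. None of Gpd2, Mdh1 and Mdh2 passed this test, with limma adjusted p-values of 0.741, 1.00 and 0.9505.

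Markers of other cells and of RNA state were measured in the same brains. The mean of 11 measured adipocyte genes, whose cells are rich in Gpd1, lay between 4.76 and 5.91 over the brain arrays, against 7.375 to 9.79 in heart. Of its defining members, Adipoq, the adipokine adiponectin, lay between 3.802 and 4.634 in brain and Fabp4, a fatty acid carrier, between 3.35 and 7.09. Members that other cells also express read higher on average, such as the lipoprotein lipase Lpl at 7.25 and Car3 at 6.71. The adipocyte list had a median difference of -0.04, -0.01, 0.04 and 0.02 at 1, 3, 6 and 24 h. Ucp1, a brown fat gene outside this list, lay between 3.31 and 6.94 in brain with a median of 3.51. The mean of the hepatocyte genes ran from 4.59 to 9.18 over the brain arrays, with a median of 5.74. The median difference of that list was 0.90, 0.06, 0.80 and 0.27 at 1, 3, 6 and 24 h, with 0 of 10 genes called at each time in limma. Its mean was over 1 log2 unit above that median in PH3 rats 85, 98, 105, 109 and 141 and in Air rats 84 and 96. Gpd1 itself reads highest in liver among the 5 organs, and without these 7 arrays the Gpd1 difference was 0.71, 1.41, 0.54 and 0.94 at 1, 3, 6 and 24 h. It then passed in limma at 3 h (adjusted p = 1.36e-05) and at 24 h (adjusted p = 0.0212), and the average was 0.90 (adjusted p = 5.25e-07). At 3 h the only array left out was PH3 rat 105, which had the lowest Gpd1 of the exposed brains of that time, 9.79. With all arrays the differences at 1 and 6 h were larger, 0.75 and 0.80. This alternative was chosen after the data were seen, and the part of liver RNA in the Gpd1 differences was not tested.

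The brain arrays also differed in region. At 24 h the mean of 10 measured cerebellum and brain stem genes was 4.49 and 4.73 in Air rats 89 and 145, against 7.32 and 7.63 in the other 2 Air rats and 7.60 to 8.54 in the PH3 rats. The median difference of that list at 24 h was 1.499, and 2 of its genes were called there. Striatum genes moved the other way, with a mean of 7.76 to 9.09 in Air and 6.30 to 8.35 in PH3 brains and a median difference of -0.87, and 0 of 10 were called in limma. Gpd1 read 8.24 and 8.36 in Air rats 89 and 145 and 8.08 and 8.50 in the other 2 Air rats of 24 h. The part of brain region in the 24 h difference was not tested. Without rats 89 and 145 the Gpd1 difference at 24 h was 0.77 (limma adjusted p = 1.00) and the average over times 0.89 (adjusted p = 3.68e-04). The gap between 3′ and 5′ probe sets of beta-actin, a sign of RNA state, averaged 4.02 in PH3 and 3.51 in Air brains at 1 h, and 3.69 against 3.67 at 3 h. At 6 and 24 h it averaged 3.65 against 3.63 and 3.72 against 3.56. The same gap for GAPDH in PH3 and Air brains averaged 1.25 against 0.74 at 1 h and 1.00 against 0.84 at 3 h. At 6 h it was 0.98 against 0.97, and at 24 h 0.93 against 1.01. The part of RNA state in the Gpd1 differences was not tested.

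Within groups, Gpd1 in brain moved with genes of oligodendrocytes, the cells that make myelin. After the group means were removed, Pearson r between Gpd1 and the mean of 9 oligodendrocyte genes was 0.59 over 32 arrays (permutation p = 2.7e-04, adjusted p = 0.00162 over 24 relations) and Spearman rho was 0.58 (permutation p = 5.6e-04, adjusted p = 0.00336). Without the 2 arrays farthest from the median of the marker mean r was 0.63. The median difference of the oligodendrocyte list between PH3 and Air was -0.19, -0.03, 0.03 and 0.06 at 1, 3, 6 and 24 h, with 0 of 9 genes called at each time in limma. With cerebellum and brain stem genes r was 0.03 (permutation p = 0.87) and with striatum genes -0.04 (permutation p = 0.83), and neither passed.

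The genes whose signal followed Gpd1 most closely over the 32 brain arrays were Pla2g3, a secreted phospholipase (r = 0.90), Gpatch4 (r = 0.89), Slc25a33, a mitochondrial pyrimidine nucleotide carrier (r = 0.87), Fibin (r = 0.83) and Sult1a1, a sulfotransferase (r = 0.81). These correlations span both exposures and all times, so they include the shared difference between PH3 and Air. In the average over times in brain, Pla2g3 rose by 0.90 ± 0.17 (limma adjusted p = 0.0225), Gpatch4 by 0.73 ± 0.11 (adjusted p = 0.00191), Fibin by 0.63 ± 0.09 (adjusted p = 3.37e-04) and Slc25a33 by 0.27 ± 0.05 (adjusted p = 0.0225). Nfkbia, an inhibitor of NF-kB that glucocorticoids induce, rose by 0.58 ± 0.09 and the metallothionein Mt2A by 0.71 ± 0.11 (limma adjusted p = 0.00191 and 0.00263).

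Of 17 measured glucocorticoid target genes, 1 passed in brain, Mt2A at 6 h, which rose by 1.49 ± 0.23 (limma adjusted p = 0.00505) in a comparison that called 0.00744% of genes. The median difference of the list in brain was 0.48, 0.33, 0.21 and 0.13 at 1, 3, 6 and 24 h, and the medians of all genes were between -0.03 and 0.01. Across the 4 brain comparisons, 29 of 68 gene values had an unadjusted limma p under 0.05, against 6.16% of the values of all genes. Outside brain the list held more calls, such as Pdk4 in heart at 1, 3 and 6 h (1.26 ± 0.16, 1.18 ± 0.16 and 1.63 ± 0.16) and Fkbp5 in lung at 3 h (2.65 ± 0.36). In heart 0.0521%, 0.238% and 2.7% of genes were called at these times, and in the lung comparison 0.298%. No gene of the list was called in liver at 6 h (median 0.002), heart at 24 h, kidney at 6 h or lung at 24 h and 1 week. Gpd1 itself did not pass in any of these organs.

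In heart no difference of Gpd1 passed, and its average lay near 0. The 14 Air arrays ranged from 9.44 to 11.23 and the 15 PH3 arrays from 9.42 to 11.03, with means of 9.88 in both. Differences ran from -0.21 at 3 h to 0.28 at 1 h, and the average over times was 0.01 ± 0.15 (95% interval -0.29 to 0.32, limma adjusted p = 0.981), in an average that called 0.863% of genes. The groups overlapped at all 4 times, while 4.24%, 5.92%, 10.5% and 21.4% of genes did not overlap at 1, 3, 6 and 24 h. Single arrays moved the differences at 3 h and 1 h. The heart of Air rat 150 at 3 h read 11.23 while the other 3 read 9.70 to 9.79, and without it the difference at 3 h was 0.16. The heart of PH3 rat 116 at 1 h read 11.03 while the other 3 read 9.53 to 9.81, and without it the difference at 1 h was -0.06.

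Those hearts carried the most adipose signal. The mean of 11 measured adipocyte genes was 9.79 in the heart of Air rat 150 and 9.73 in that of PH3 rat 116, against 7.375 to 9.004 in the other hearts. Adipoq read 9.73 and 9.27 in them, against a heart median of 5.96, and Ucp1, the uncoupling protein of brown fat, 12.10 and 11.84, against a median of 6.69. Not all such genes were high: over all hearts Plin1 reached at most 5.38 and Lep at most 4.32. The brown fat genes Elovl3 and Dio2 averaged 3.48 and 3.67 in heart. Fabp4 lay between 11.44 and 12.24 in all hearts, so part of the list mean is not particular to adipose tissue. Over 29 hearts, with group means removed, Gpd1 correlated with the adipocyte genes at Pearson r = 0.85 (permutation p = 1e-05, the smallest that 100000 permutations can give, adjusted p = 1.2e-04) and Spearman rho = 0.78 (permutation p = 1e-05). It was 0.72 without the 2 arrays farthest from the median. No Gpd1 difference in heart passed with or without these arrays.

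**Figure D2:**
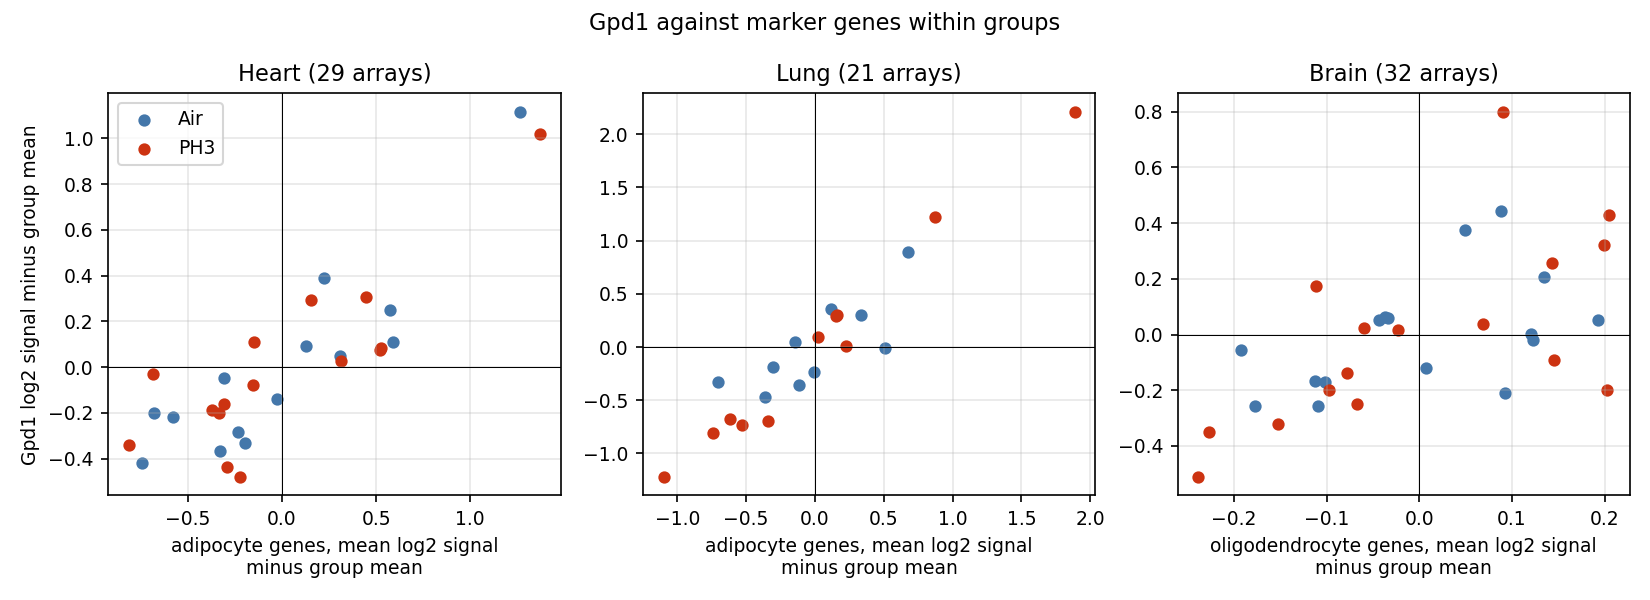
Gpd1 log2 signal minus its group mean (vertical) against the mean of a marker list minus its group mean (horizontal), 1 point per array, Air in blue and PH3 in red. Gpd1 rises with the adipocyte genes in heart (r = 0.85, 29 arrays) and lung (r = 0.95, 21 arrays) and, over a narrower range, with the oligodendrocyte genes in brain (r = 0.59, 32 arrays).

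Lung showed the widest spread of Gpd1. At 3 h the 2 Air arrays read 8.71 and 7.9998 and the PH3 arrays 9.54, 9.74, 8.75 and 9.74. The PH3 arrays lay above both Air arrays, and the difference of 1.09 ± 0.68 did not pass (limma adjusted p = 0.525). Groups did not overlap for 41.3% of all genes in this comparison, in one direction or the other. In heart at 24 h, which also had 2 Air arrays, the share was 21.4%. The cause of the higher share in lung was not tested. At 24 h the PH3 arrays read 10.53, 7.52, 7.65 and 7.59 and the Air arrays 7.65, 7.93, 7.89 and 9.01, so that only PH3 rat 70 stood above the controls, and at 1 week the PH3 arrays read 8.53, 7.31 and 9.75 against 7.79 to 8.43. The differences at these times were 0.20 ± 0.56 and 0.40 ± 0.60 (limma adjusted p = 1.00 for both), and without rat 70 the 24 h difference was -0.53. The average over the 3 times was 0.56 ± 0.35 (95% interval -0.18 to 1.31, limma adjusted p = 0.643), in an average that called 0.216% of genes, and lung was not part of the test between organs. In lung 0% of genes (0 of 13439) were called at 24 h and at 1 week, and 0.908% and 1.69% did not overlap.

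The lung arrays high in Gpd1 were high in adipose genes. Gpd1 correlated with the adipocyte genes within groups at Pearson r = 0.95 (21 arrays, permutation p = 1e-05, adjusted p = 1.2e-04) and Spearman rho = 0.89 (permutation p = 1e-05), and at r = 0.90 without the 2 farthest arrays. The lung of PH3 rat 70 at 24 h had the highest adipocyte mean, 9.10, with Adipoq at 8.83 and Ucp1 at 11.39. Over all lungs Plin1 reached at most 4.86 and Lep at most 3.69. At 3 h the adipocyte mean was 8.01 to 8.50 in PH3 lungs and 7.40 to 7.64 in Air lungs, without overlap, and the list's median difference was 0.93 with 0 of 11 genes called in limma. The part of this adipose signal in the Gpd1 difference at 3 h was not tested.

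In kidney the largest difference of Gpd1 was at 6 h. There the Air arrays read 10.48, 10.53, 10.44 and 10.56 and the PH3 arrays 10.61, 10.91, 10.66 and 11.75. The groups did not overlap, as for 5.94% of genes, and the difference of 0.48 ± 0.16 did not pass (unadjusted p = 0.00715, limma adjusted p = 0.360). Rat 141 stood above the other 3 PH3 kidneys, and without it the difference was 0.22 ± 0.13. The differences at 1, 3 and 24 h were -0.13, -0.07 and 0.04, and the average 0.08 ± 0.08 (95% interval -0.09 to 0.25, limma adjusted p = 0.909). The groups overlapped at those times, where 3.37%, 2.9% and 1.75% of genes did not, and 0.223%, 0.104%, 0.126% and 0.0149% of genes were called in kidney at 1, 3, 6 and 24 h. Within groups Gpd1 in kidney correlated with the adipocyte genes at Pearson r = 0.35 (32 arrays, permutation p = 0.0504, adjusted p = 0.121), Spearman rho = 0.485 (permutation p = 0.00578, adjusted p = 0.0231) and r = 0.27 without the 2 farthest arrays.

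Gpd1 was high and even in liver. At 6 h the Air arrays read 11.43, 11.52, 11.61 and 11.38 and the PH3 arrays 11.33, 11.18, 11.39 and 11.53. The groups overlapped, with a difference of -0.13 ± 0.08 (limma adjusted p = 0.500). PH3 rat 141 had the highest Gpd1 of its group in brain, heart, kidney and liver at 6 h, with 11.19, 10.16, 11.75 and 11.53. In heart and liver its lead over the next array, at 10.15 and 11.39, was small.

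Gpd2, the inner membrane partner of Gpd1 in the shuttle, passed in 0 of the 16 comparisons, and none had an unadjusted limma p under 0.05. Over all 16 comparisons together 0.253% of gene values were called. The differences ran from -0.32 in heart at 6 h to 0.32 in lung at 1 week. In brain the direction was opposite to that of Gpd1 at each time, with -0.05, -0.22, -0.07 and -0.15 at 1, 3, 6 and 24 h, each ± 0.12. The brain average was -0.12 ± 0.06 (95% interval -0.24 to -0.00, unadjusted p = 0.0476, limma adjusted p = 0.599), so no change in Gpd2 was called and a fall beyond 0.24 lies outside the interval.

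In heart Gpd2 averaged -0.19 ± 0.09 (unadjusted p = 0.0417, limma adjusted p = 0.345). At 6 h the Air hearts read 8.50, 8.25, 8.61 and 8.76 and the PH3 hearts 8.43, 8.42, 8.04 and 7.94. The groups overlapped at all 4 times in heart. In lung Gpd2 averaged 0.23 ± 0.09 (unadjusted p = 0.0271, limma adjusted p = 0.537). At 1 week the Air lungs read 8.33, 8.33, 8.05 and 8.28 and the PH3 lungs 8.64, 8.52 and 8.53, without overlap, as for 1.69% of genes (0.32 ± 0.16, limma adjusted p = 1.00). Gpd2 correlated within groups with the adipocyte genes in heart (Pearson r = 0.73, permutation p = 2e-05, Spearman rho = 0.65, permutation p = 1.4e-04, 29 arrays, r = 0.60 without the 2 farthest). In lung the values were Pearson r = 0.63 (permutation p = 0.00213) and Spearman rho = 0.56 (permutation p = 0.00908) over 21 arrays, and 0.48 without the 2 farthest. Their part in the Gpd2 differences was not tested.

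In brain Gpd2 correlated negatively with the oligodendrocyte genes that Gpd1 followed. Its correlation with the oligodendrocyte genes within groups was Pearson r = -0.43 (32 arrays, permutation p = 0.0145, adjusted p = 0.0435) and Spearman rho = -0.47 (permutation p = 0.00709), and -0.36 without the 2 farthest arrays. With the cerebellum and brain stem genes it was Pearson r = -0.43 (permutation p = 0.0139, adjusted p = 0.0435) and Spearman rho = -0.54 (permutation p = 0.00171), and -0.32 without the 2 farthest. Air rat 89 at 24 h, which had the lowest signal of those regional genes, had the highest Gpd2 of all Air brains, 8.99.

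**Figure D3:**
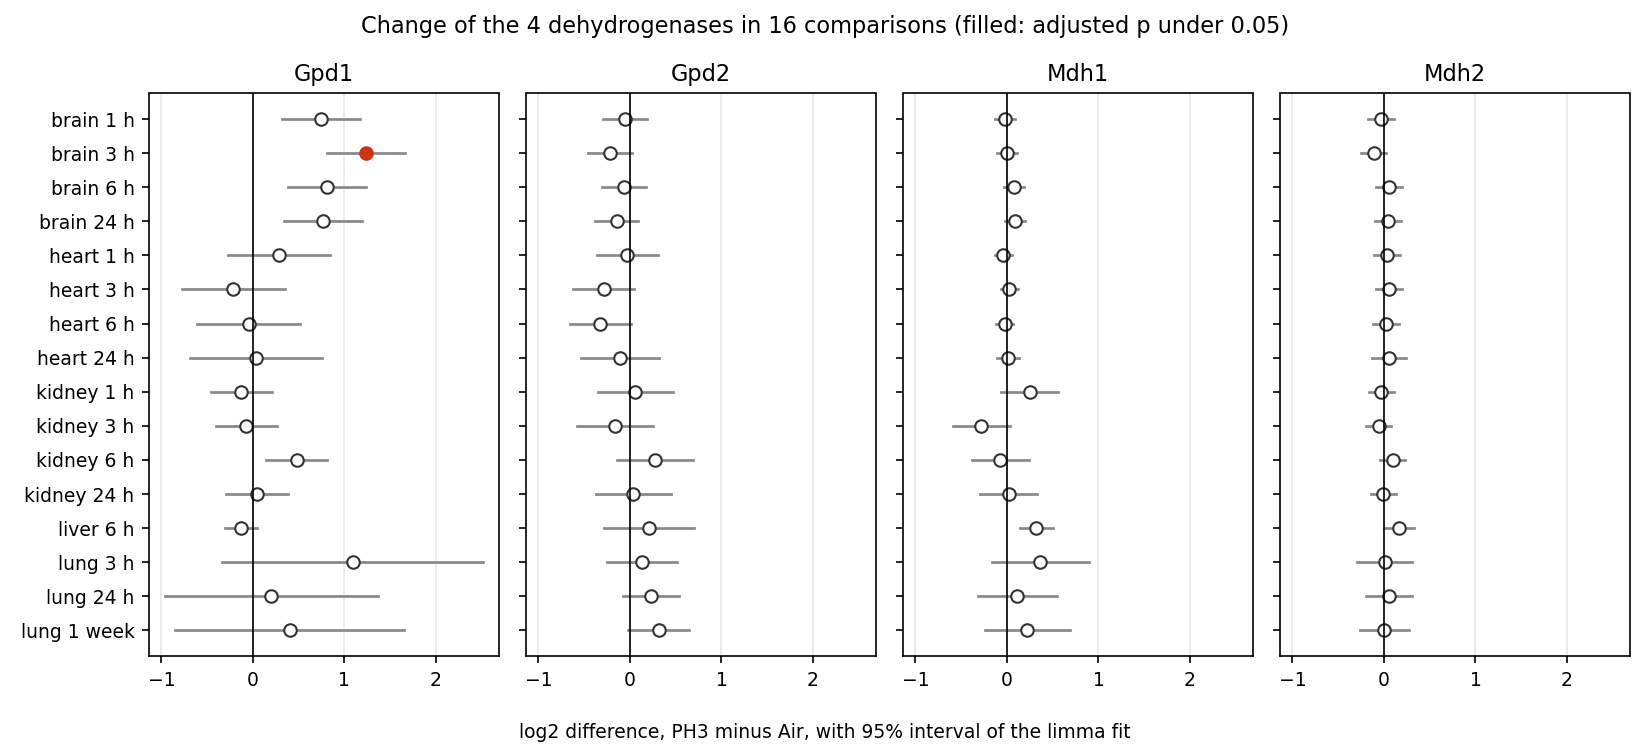
Difference between PH3 and Air (log2, horizontal) with its 95% interval from the limma fit for each of the 4 genes in the 16 comparisons, with a filled point where the adjusted p was under 0.05. The single filled point is Gpd1 in brain at 3 h (1.24), the Gpd1 intervals in brain lie above 0 at all 4 times, and the intervals of Mdh1 and Mdh2 in brain and heart are narrow and span 0.

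Mdh1, the cytosolic malate dehydrogenase, passed in 0 of 16 comparisons and had an unadjusted limma p under 0.05 in 1, liver at 6 h. There the Air livers read 12.03, 11.82, 11.93 and 12.05 and the PH3 livers 12.15, 12.34, 12.29 and 12.35. Every PH3 liver was above every Air liver, and the difference was 0.32 ± 0.08, or 1.25-fold (95% interval 0.14 to 0.50, unadjusted p = 0.00191, limma adjusted p = 0.105). Its other probe set gave 0.87 ± 0.23 in the same comparison (adjusted p = 0.105). Groups did not overlap for 9.61% of genes in this comparison, and 0.238% were called.

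Mdh2, the matrix enzyme, was also higher in PH3 livers at 6 h without passing. The Air livers read 11.01, 11.08, 10.87 and 11.03 and the PH3 livers 11.22, 11.16, 11.13 and 11.14. The groups did not overlap, as for 9.61% of genes, and the difference was 0.16 ± 0.08, or 1.12-fold (95% interval -0.00 to 0.33, limma adjusted p = 0.358). The PH3 livers of 3 h, which have no controls, read 10.821, 11.002 and 11.148 for Mdh2 and 11.95, 11.76 and 12.12 for Mdh1, within or close to the range of the Air livers of 6 h.

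The differences of Mdh1 in brain and heart, and of Mdh2 in brain, heart and kidney, were small. In brain the differences of Mdh1 ran from -0.02 to 0.08 with standard errors of 0.05, and its average was 0.03 ± 0.03 (95% interval -0.02 to 0.09). In heart they ran from -0.04 to 0.02, and the average was -0.01 ± 0.02 (95% interval -0.06 to 0.04). Mdh2 averaged -0.01 in brain (95% interval -0.08 to 0.06), 0.04 in heart (-0.04 to 0.12) and 0.00 in kidney (-0.07 to 0.07). Averages beyond these limits, at most 0.12 on the log2 scale, lie outside the 95% intervals for Mdh1 in brain and heart and for Mdh2 in all 3 organs. For Mdh1 these limits hold for the probe set used only. Its SD over all arrays of the organ was 0.068 in brain and 0.057 in heart. The other Mdh1 probe set varied more, with 0.277 and 0.262.

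Mdh1 was less even in kidney and lung. In kidney its differences were 0.25 at 1 h, -0.28 at 3 h, -0.07 at 6 h and 0.02 at 24 h, each ± 0.15. The extremes came from single arrays, Air rat 168 at 1 h with 12.02 and PH3 rat 122 at 3 h with 12.08, while the other kidneys read 12.38 to 13.005. In lung at 3 h the Air arrays read 10.72 and 10.85 and the PH3 arrays 11.25, 11.11, 10.98 and 11.28. These did not overlap, as for 41.3% of genes in that comparison, and the difference of 0.37 ± 0.25 did not pass (limma adjusted p = 0.555). In lung Mdh2 correlated with the adipocyte genes within groups at Pearson r = 0.65 (21 arrays, permutation p = 0.00203, adjusted p = 0.00852) and Spearman rho = 0.50 (permutation p = 0.0225, adjusted p = 0.0601), but at 0.35 without the 2 farthest arrays.

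The partners of these enzymes changed in few places. Of 7 genes listed as malate-aspartate shuttle partners, 1 rose and 0 fell over the 16 comparisons in limma, with 13 of 112 gene values at an unadjusted p under 0.05. The list also held Slc25a10 and Slc25a22, carriers that are not part of the shuttle itself. Over all genes 7.53% of values were at that level. The one that rose was Got1, the cytosolic aspartate aminotransferase, in liver at 6 h, from 10.49 ± 0.52 to 12.08 ± 0.28 (SD, 4 arrays each), a difference of 1.59 ± 0.26 (limma adjusted p = 0.0323). It rose in the comparison in which Mdh1 and Mdh2 were higher without overlap. There 9.61% of all genes did not overlap and 0.238% were called. In that comparison 4 of the 7 listed genes had an unadjusted limma p under 0.05, against 1895 of 13439 genes. Slc25a10, the dicarboxylate carrier, was lower in heart at 6 h by a difference of -0.74 ± 0.24 that did not pass (limma adjusted p = 0.0899).

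Of 8 measured glycerol 3-phosphate partners none passed in any comparison in limma, and 9 of 128 gene values had an unadjusted p under 0.05, a share near the 7.53% of all genes. In liver at 6 h Gk, the glycerol kinase, differed by -0.42 ± 0.10 (adjusted p = 0.0892 in limma). The list's median in brain ran from -0.05 to 0.11 over the 4 times, with 0 of 32 gene values at an unadjusted p under 0.05. Of 10 NADH and malate enzymes none passed in limma, with 13 of 160 gene values at an unadjusted p under 0.05, again near that share. In kidney at 6 h Pck1, the cytosolic enzyme that turns oxaloacetate into phosphoenolpyruvate, differed by 0.46 ± 0.11 (limma adjusted p = 0.0794).

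Of 17 measured genes of the tricarboxylic acid cycle, 1 rose and 0 fell in limma, with 17 of 272 gene values at an unadjusted p under 0.05, against 7.53% of all genes. Dlst, a subunit of the 2-oxoglutarate dehydrogenase complex, rose in liver at 6 h from 10.50 ± 0.08 to 11.04 ± 0.07 (SD, 4 arrays each), a difference of 0.54 ± 0.08 (limma adjusted p = 0.0323). Of 16 measured genes of glycolysis, 1 rose and 0 fell, with 17 of 256 at that level, so both lists lay below the share of all genes over the 16 comparisons together. In liver at 6 h, 6 of 17 tricarboxylic acid cycle genes and 3 of 16 glycolysis genes were at that level, against 1895 of 13439 genes. Eno2, an enolase best known from neurons, rose in heart at 6 h by 0.96 ± 0.21 (limma adjusted p = 0.0127), where 2.7% of genes were called. The medians of these 2 lists lay between -0.11 and 0.21 over the 16 comparisons.

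The 4 genes differed in how they were spread over the organs of Air rats. Gpd1 was highest in liver, with 11.48 ± 0.10 (SD, n = 4), followed by kidney with 10.61 ± 0.12 (n = 16), heart with 9.88 ± 0.44 (n = 14), brain with 9.12 ± 0.58 (n = 16) and lung with 8.17 ± 0.43 (n = 10). Each step differed in limma, by 0.88 ± 0.22, 0.73 ± 0.15, 0.76 ± 0.15 and 0.95 ± 0.16 (the largest adjusted p was 5.03e-04). With the other Gpd1 probe set kidney minus heart was -0.081 ± 0.091 (adjusted p = 0.425) and brain minus lung 0.10 ± 0.10 (adjusted p = 0.357). Most genes differ between organs: 75.2% to 82.6% of all genes were called between brain, heart and kidney, 65.1% between heart and liver, 61% between kidney and liver, and 76.9% between brain and lung.

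Gpd2 had another order, with brain highest and liver lowest. Brain read 8.65 ± 0.16 (SD), heart 8.51 ± 0.23, lung 8.37 ± 0.19, kidney 7.64 ± 0.24 and liver 6.86 ± 0.29. Brain and heart differed by 0.15 ± 0.08 (limma adjusted p = 0.0772) and heart and lung by 0.14 ± 0.09 (adjusted p = 0.151), and neither step passed, while 82.6% and 76.9% of all genes did. The steps from lung to kidney (0.72 ± 0.09, adjusted p = 3.61e-11) and from kidney to liver (0.79 ± 0.12, adjusted p = 5.15e-08) passed in limma. Gpd1 and Gpd2, the cytosolic and mitochondrial sides of the glycerol phosphate shuttle, were thus at opposite ends of their ranges in liver.

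**Figure D4:**
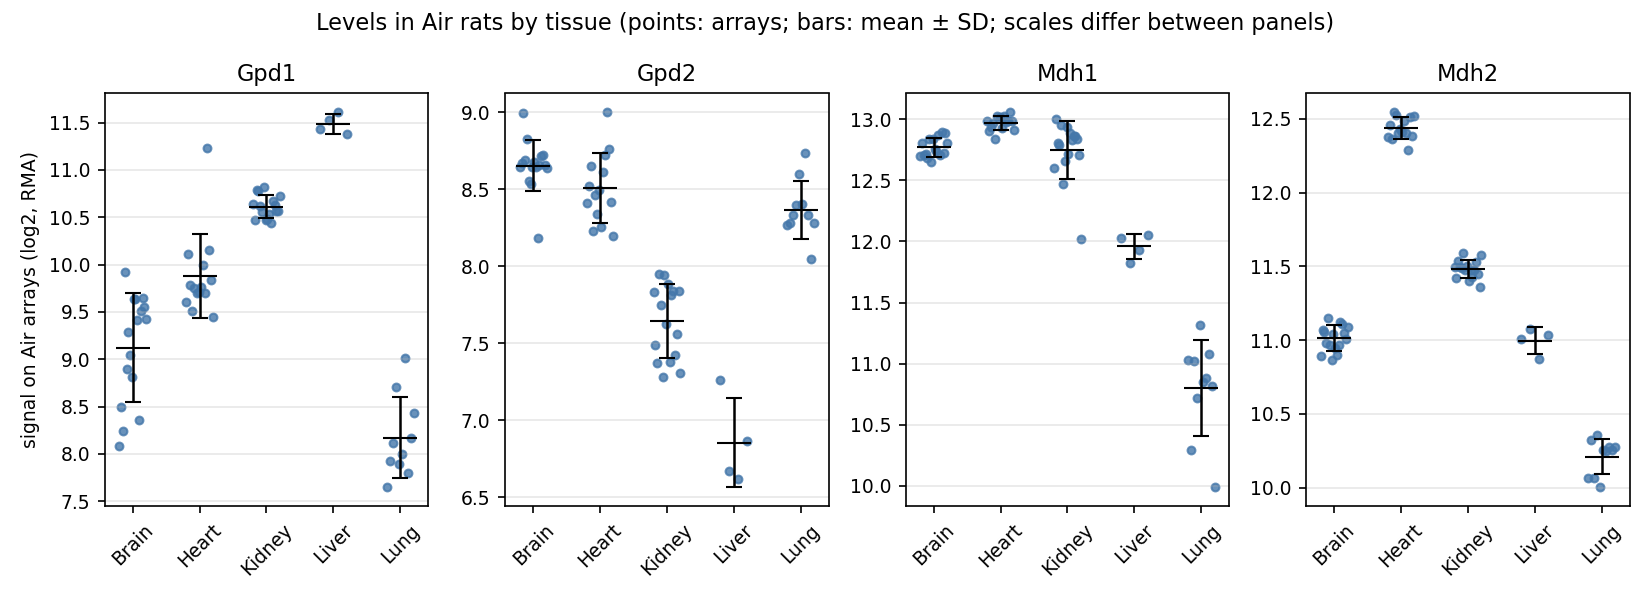
Log2 signal of the 4 genes on each Air array by tissue, with the mean and SD as bars and a scale of its own for each gene, since levels of different probe sets are not comparable. Gpd1 is highest in liver (11.48) where Gpd2 is lowest (6.86), and Mdh1 and Mdh2 are highest in heart (12.97 and 12.44) and lowest in lung (10.80 and 10.21).

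Both malate dehydrogenases were highest in heart and lowest in lung. Mdh1 read 12.97 ± 0.06 (SD) in heart, 12.77 ± 0.08 in brain, 12.75 ± 0.24 in kidney, 11.96 ± 0.10 in liver and 10.80 ± 0.39 in lung, and no difference between brain and kidney was called (0.03 ± 0.07, limma adjusted p = 0.749). With the other Mdh1 probe set heart minus brain was -0.14 ± 0.16 (adjusted p = 0.422) and brain minus kidney 1.22 ± 0.15 (adjusted p = 1.16e-10). Mdh2 read 12.44 ± 0.08 in heart, 11.48 ± 0.06 in kidney, 11.01 ± 0.09 in brain, 10.997 ± 0.090 in liver and 10.21 ± 0.12 in lung. For Mdh2 no difference between brain and liver was called (0.02 ± 0.05, limma adjusted p = 0.768, where 78.1% of genes were called), though centring each array on its median made brain minus liver -0.30 ± 0.06 (adjusted p = 1.28e-05).

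Over the 33 group means of tissue, exposure and time, the genes closest to Gpd1 were Adhfe1 (r = 0.90), Slc38a3, a glutamine transporter (r = 0.89), and Rnf128 (r = 0.88). Those closest to Gpd2 were Camk2d, a calmodulin-dependent kinase (r = 0.96), Cdk14 (r = 0.95) and Map4k4 (r = 0.95). Mdh1 was closest to the glycolytic genes Tpi1 and Gapdh (r = 0.98 for both) and to Nt5c3a (r = 0.95). Mdh2 was closest to Ndufb7, Ndufs7 and Ndufv2, all subunits of respiratory complex I (r = 0.997, 0.994 and 0.9935). These correlations are carried largely by the differences between the 5 organs and describe likeness over them alone.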

How the data were processed

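RNA from frozen, powdered tissue was labelled by a 3′ method and hybridised to Affymetrix rat arrays, per the labels' protocols. The deposited values are log2 signals that the authors summarised by RMA, per the submitters' processing notes, in which the software listed is Partek and Affymetrix Expression Console, with no version. RMA normalises by quantiles, so a global shift in RNA would not be seen. Arrays have no read depth, and their number limits the precision. Of the probe sets, 19069 had 1 symbol in the platform annotation, 572 several and 11498 none, and identifiers of 18989 matched RefSeq genes (assembly GRCr8). The build behind the platform annotation is not given in the sources used here, and no coordinates are printed. Blood was not analysed here.

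A linear model with a mean for every group was fitted to all arrays of a tissue at once (limma 3.58.1 under R 4.3.3, eBayes with a trend) after it had been tested on simulated data. The 3 PH3 livers of 3 h entered the fit without a comparison. Adjusted p-values are those of Benjamini-Hochberg over 13439 genes within each comparison, with 0.05 as the threshold. All tests are two-sided, and permutation tests used 100000 resamples. Brain, heart and kidney mostly came from the same rats, by the rat numbers in the labels (numbers 134 and 135 of the PH3 group at 6 h, which share no organ, count as different rats), so the test between organs was repeated with the rat as a replicate block. Same-numbered organs showed median correlations of their deviations of 0.07 (brain and heart), 0.01 (brain and kidney) and 0.07 (heart and kidney). Alternatives covered the arrays, weights, filters, probe sets, normalization and centring, and each array left out in turn. The members are the 4 genes given, and all 4 were described in all 16 comparisons. Of each pathway list, up to 4 genes per comparison that passed could be named, or else the one with the smallest p, and for likeness the 3 genes with the highest r over group means and the 5 over brain arrays. Nfkbia and Mt2A in the brain average were named after their values were seen. The members and lists were chosen with earlier results of these data known. Plots were drawn with matplotlib 3.10.9.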

Additional observations from a re-analysis of the deposited data

Results flagged for a closer look

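Of 112 groups of 4 arrays examined over the 4 genes, 10 held an array whose gap to the nearest other exceeded Dixon's 95% limit, and chance flags about 1 in 20 groups. For Gpd1 these were the brain of Air rat 138 at 6 h (9.41, next 9.63), the brain of PH3 rat 141 at 6 h (11.19, next 10.19), the heart of Air rat 150 at 3 h (11.23, next 9.79) and the lung of PH3 rat 70 at 24 h (10.53, next 7.65). For Gpd2 they were the brain of Air rat 138 at 6 h, the low array (8.18, next 8.64), and the brain of Air rat 89 at 24 h (8.99, next 8.67). Mdh1 had 1, the brain of Air rat 84 at 24 h (12.80, next 12.71). Mdh2 had the kidney of PH3 rat 134 at 6 h (11.70, next 11.48), the lung of Air rat 133 at 1 week (10.07, next 10.25) and the lung of PH3 rat 147 at 3 h (10.37, next 10.30). Air rat 138 was thus the lowest brain of its group for both Gpd1 and Gpd2.

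The effect of PH3 on Gpd1 differed between brain, heart and kidney by a limma F test over 1, 3 and 6 h (F = 12.56, adjusted p = 0.00622). That test called 1.18% of genes. Gpd1 was higher in 12 of 12 exposed brains than in every Air brain of the same time. Groups did not overlap in brain for 2.24%, 2.95% and 2.37% of all genes at 1, 3 and 6 h.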

How the results depend on the processing

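Gpd1 in brain at 3 h (1.24, limma adjusted p = 0.0295) kept its direction in all settings tried and lost its call with all probe sets tested (1.24, adjusted p = 0.0670), the 2 groups fitted alone (1.24, adjusted p = 0.235) and the other probe set (0.41, adjusted p = 0.723). Leaving out each array in turn gave 1.09 to 1.41 and adjusted p-values of 0.00556 to 0.383, with the call kept in 2 of 8. The average over times in brain lost its call only with the other probe set (0.18, adjusted p = 0.294) among 13 settings, and kept it in all 32 fits without 1 array. The number of member calls over the 16 comparisons, 1, became 0 with all probe sets tested, with the 2 groups fitted alone and with the other probe set. The F test of Gpd1 between organs kept its call with the replicate block (F = 13.03, adjusted p = 0.00456) and in 72 fits without 1 array (F of 10.91 to 17.43). It was not run with the other Gpd1 probe set, on which no brain call was kept. Gpd1 in brain at 24 h gained a call without the arrays raised in hepatocyte genes (0.94, adjusted p = 0.0212). Between neighbouring organs of Air rats, 3 steps reversed, where a step counts as reversed if its sign turned and either value was called: Gpd1 kidney minus heart (-0.081) and Mdh1 heart minus brain (-0.14) with the other probe set, and Mdh2 brain minus liver (-0.30) with centring. Other probe sets or centring changed the call of 3 more, Gpd1 brain minus lung (0.10), Gpd2 heart minus lung (0.29 and 0.36) and Mdh1 brain minus kidney (1.22). The other Gpd1 probe set read near the 25th percentile of the arrays in both brain and lung. The cause of these shifts was not tested. Elsewhere signs turned only for differences that no test called. Heart at 24 h and lung at 3 h have 2 Air arrays each, which limits their precision.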
